A study of Arabidopsis thaliana with 6 samples.

Results

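The Aux/IAA genes described here are 10 auxin-responsive members of the family, IAA1, IAA2, IAA3, IAA4, IAA5, IAA6, IAA14, IAA17, IAA19 and IAA29. They were taken by locus from a table of 21430 probe sets, each for a different locus, and all 10 had a probe set. The array also held 18 of the 19 other Aux/IAA genes looked for. The values come from wild-type Arabidopsis thaliana seedlings of the accession Columbia-0, grown in liquid medium with sucrose. At day 7 one group was given hydrogen peroxide (H2O2, a reactive oxygen species) to 10 mM and the other, called mock, as much water, and both were harvested 24 h later. Each group had 3 replicates, each a pool of 4 to 5 plants on its own Affymetrix array. All values are log2 GCRMA values, in which background is corrected by probe sequence, arrays are normalized to each other and the probes of a gene are summarised.

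Aux/IAA proteins are short-lived nuclear repressors. When auxin is low they bind auxin response factors (ARFs) at auxin-regulated genes and recruit TOPLESS corepressors. Auxin joins an Aux/IAA protein to a TIR1/AFB F-box receptor, which marks it for destruction and frees the ARFs. Many Aux/IAA genes are themselves induced by auxin within minutes, so the repressors are replaced after they are degraded, and the transcripts of these genes are widely used as readouts of auxin response in growing seedlings.

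In the labels the tissue is leaf but the source is seedling. All 3 leaf markers on the array, of 6 listed, had values of 11.09 or more on the log2 scale, and all 10 root markers were measured, the lowest value being 3.45, with PYK10 at 11.96 ± 0.11 in H2O2 and 12.02 ± 0.05 in mock (SD, n = 3 each). The lowest value of any probe set was 1.55, so a measured value alone does not show that a transcript was present. Going by the level of PYK10, the pools did not lack root transcripts. The median log2 value of the arrays ran from 5.66 to 5.74. Precision is limited by there being 6 arrays. Since no label tells whether the pools were grown apart, each p-value speaks only for the variation from pool to pool, some of which may be technical.

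Setting H2O2 against mock asks how transcript levels differ after a day of peroxide. Probe sets whose mean over the 6 arrays lay under 3.79 on the log2 scale, the 30th percentile, were left out of the test, and the remaining 15001 were tested together with limma. Changes are H2O2 minus mock, and a change was called at a Benjamini-Hochberg adjusted p under 0.05 over all 15001.

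The Aux/IAA members were lower in H2O2. Of the 8 that passed the filter on low values, 7 fell (IAA1, IAA17, IAA3, IAA29, IAA4, IAA2 and IAA19), 0 rose and IAA14 was not called. At an unadjusted p under 0.05 the number that rose was also 0. Falls at the same threshold were found for 36.5% of all probe sets tested, rises for 23.9% and either for 60.4%, so a call by itself was common in these data. A fall of at least 2-fold was rarer, at 4.14% of all tested, and was found for 3 of the 8 members, IAA1, IAA17 and IAA3, while a rise of that size was found for 7.63% of all tested and 0 members. The median log2 change of the 8 was -0.81, beside -0.10 for all probe sets tested. IAA29 passed the filter only through its mock values and so had to be lower. Without it 6 of 7 fell, with a median of -0.76, a count added after the data were seen. On 8 of the 10 probe sets, IAA5 included, every H2O2 array lay below every mock array. Among the 8 tested members this held for the 7 that fell, IAA29 included, and it held for 40.7% of all probe sets tested. The reverse order held for 26.6% of all tested and for 0 members.

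**Figure D1:**
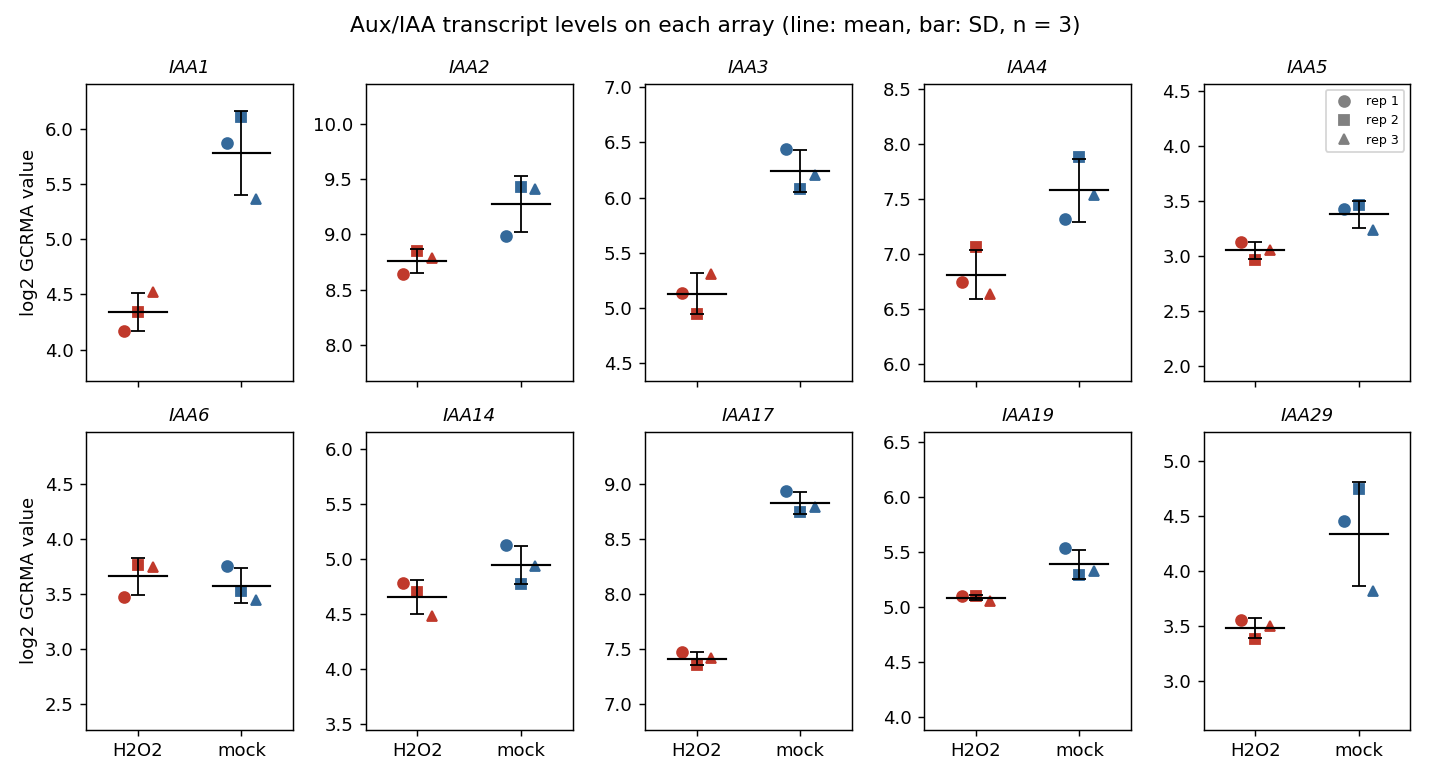
Log2 GCRMA value of each Aux/IAA member on every array, H2O2 left and mock right in each panel. Symbols mark the replicate number, horizontal lines the mean and bars the SD (n = 3), and every panel spans the same log2 range around its own centre. All H2O2 points lie below all mock points except for IAA6 and IAA14.

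IAA17 (AT1G04250), also named AXR3 for its auxin-resistant gain-of-function mutants with altered root gravitropism and root hairs, had the change measured most precisely. Its log2 values were 7.47, 7.36 and 7.42 in H2O2, against 8.93, 8.75 and 8.79 in mock. The lowest mock array stood 1.28 above the highest H2O2 array, the widest gap among the members. IAA17 fell 2.66-fold (log2 change -1.41, SE 0.08, limma adjusted p = 2.16e-06), with a 95% interval from -1.59 to -1.23 that lies wholly beyond a 2-fold fall.

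IAA1 (AT4G14560), an early auxin-induced gene in which the auxin-resistant axr5 mutation lies, had log2 values of 4.17, 4.34 and 4.52 in H2O2, against 5.88, 6.11 and 5.36 in mock. The groups were apart, but the mock arrays spread over 0.75, with replicate 3 the lowest. IAA1 fell 2.72-fold (log2 change -1.44, SE 0.18, limma adjusted p = 0.000225), and its interval, -1.86 to -1.03, takes in that of IAA17. IAA1 and IAA17 lay at the 1.46th and 1.55th percentile of all changes tested, counted from the largest fall.

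IAA3 (AT1G04240), named SHY2 in RefSeq, is the repressor through which cytokinin restrains auxin transport in the root meristem. Its log2 values were 5.13, 4.94 and 5.31 in H2O2, against 6.44, 6.07 and 6.20 in mock, with a gap of 0.77 between the groups. IAA3 fell 2.16-fold (log2 change -1.11, SE 0.12, 95% interval -1.40 to -0.83, limma adjusted p = 0.000116).

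IAA29 (AT4G32280), which is transcribed under shade and warmth by phytochrome-interacting factors, had log2 values of 3.56, 3.38 and 3.50 in H2O2, against 4.45, 4.74 and 3.82 in mock. All H2O2 arrays lay under the filter level of 3.79 and all mock arrays over it, which is why it entered the test only through mock. Its mock arrays spread over 0.92, the most of any member, with replicate 3 again lowest. IAA29 fell 1.81-fold (log2 change -0.86, SE 0.20, limma adjusted p = 0.00644). The log2 change was -0.60 with low values raised to the 30th percentile and -1.12 without mock replicate 3, and without mock replicate 2 the gene dropped under the filter.

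IAA4 (AT5G43700), ATAUX2-11 in RefSeq, had log2 values of 6.74, 7.06 and 6.64 in H2O2, against 7.32, 7.88 and 7.54 in mock. The groups did not overlap, and IAA4 fell 1.70-fold (log2 change -0.76, SE 0.16, limma adjusted p = 0.00334). IAA2 (AT3G23030), whose promoter drives a common reporter of auxin response in roots, had log2 values of 8.64, 8.85 and 8.79 in H2O2, against 8.99, 9.43 and 9.41 in mock. The gap between its groups was only 0.13, with mock replicate 1 close to the H2O2 arrays. IAA2 fell 1.43-fold (log2 change -0.52, SE 0.13, limma adjusted p = 0.00809). For both genes the highest array of each group was replicate 2.

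IAA19 (AT3G15540), named MSG2 for mutants with impaired phototropism and gravitropism of the hypocotyl, had log2 values of 5.10, 5.10 and 5.06 in H2O2, against 5.54, 5.29 and 5.33 in mock. The H2O2 arrays lay within 0.05 of each other and all below mock. IAA19 fell 1.23-fold (log2 change -0.30, SE 0.09, limma adjusted p = 0.0148), a size at the 32.4th percentile of all changes tested. Its call was lost with arrays centred on reference genes (adjusted p = 0.0821) and without mock replicate 1 (adjusted p = 0.0502).

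IAA14 (AT4G14550), named SOLITARY-ROOT because its stabilised form blocks lateral root formation, had log2 values of 4.78, 4.70 and 4.48 in H2O2, against 5.13, 4.78 and 4.94 in mock. H2O2 replicate 1 lay just above mock replicate 2, so the groups overlapped. The log2 change was -0.29 (SE 0.11, 95% interval -0.55 to -0.03), with a limma adjusted p of 0.0549. With the replicate number as a block the adjusted p was 0.033 and IAA14 became the eighth member called lower.

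IAA5 (AT1G15580) and IAA6 (AT1G52830), which have been studied together with IAA19 in the drought response, were under the filter. IAA5 had log2 values of 3.13, 2.97 and 3.06 in H2O2, against 3.43, 3.46 and 3.24 in mock. All its H2O2 arrays were lower, and in a fit without the filter its log2 change was -0.33 (SE 0.09, limma adjusted p = 0.0157). IAA6 (SHY1 in mutants) had log2 values of 3.47, 3.77 and 3.75 in H2O2, against 3.76, 3.53 and 3.45 in mock. These groups overlapped, and the log2 change without the filter was 0.08 with a 95% interval from -0.17 to 0.34 and an adjusted p of 0.601. Values this low may be compressed and differences between groups understated, which was not tested.

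The log2 changes of the tested members ran from -1.44 to -0.29. Differences in size between members were tested only for adjacent genes, as given below. The intervals of IAA1, IAA3 and IAA17 did not reach those of IAA14 and IAA19, whereas those of IAA29, IAA4 and IAA2 overlapped each other. Standard deviations were larger in mock for 9 of the 10 members, all but IAA6, and so for every tested member. They were larger in mock for 43.0% of all probe sets tested. The mock arrays did not rank alike for all members. IAA3, IAA14, IAA17 and IAA19 were highest in mock replicate 1 and lowest in mock replicate 2, IAA2 and IAA4 highest in replicate 2 and lowest in replicate 1, and IAA1, IAA5 and IAA29 highest in replicate 2 and lowest in replicate 3. IAA6 was highest in mock replicate 1 and lowest in replicate 3.

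In the RefSeq table, 4 members form 2 pairs of adjacent genes with no protein-coding gene and 1 lncRNA gene between them, IAA3 with IAA17 and IAA14 with IAA1. Both genes of the first pair fell more than 2-fold. In the second pair IAA1 fell 2.72-fold while IAA14 was not called. The log2 change of IAA14 was above that of IAA1 by 1.15 and that of IAA3 above that of IAA17 by 0.30, and in both cases a two-sided exact permutation test of the within-array difference gave p = 0.10, the smallest that 3 against 3 arrays allow (adjusted p = 0.15). Another pair joins IAA2 to IAA7, which is not a member. IAA7 (AXR2) had 8.95 ± 0.03 in H2O2 and 9.60 ± 0.03 in mock (log2, SD, n = 3 each) and fell by 0.66, a log2 change that differed from that of IAA2 by 0.14 (exact permutation p = 0.50). Adjustment was over these 3 relations, the only ones tested in this way. No member had values identical to those of another locus, so none shares its probes wholly with a relative.

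The rest of the family went both ways. Of 18 other Aux/IAA genes on the array, 13 passed the filter. At a threshold where 36.5% of all tested fell and 23.9% rose, 2 of the 13 fell, 5 rose and 6 were not called. Their median log2 change was 0.04. The fallers were IAA7 and IAA12, the repressor known as BODENLOS from embryonic root formation, at -0.39 (SE 0.10). The risers were IAA10, at 5.62 ± 0.23 in H2O2 and 4.95 ± 0.20 in mock (log2, SD, n = 3 each), a change of 0.67, and IAA27, IAA26, IAA18 and IAA16, at 0.34 to 0.41. The call of IAA12 was lost with reference gene centring (adjusted p = 0.0515) and that of IAA18 without mock replicate 2 (adjusted p = 0.055). All tested members lay below 0 and 8 of the 13 others above it. Whether the 2 sets differ was not tested, since the members were chosen as auxin-responsive genes with results of these data known.

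**Figure D2:**
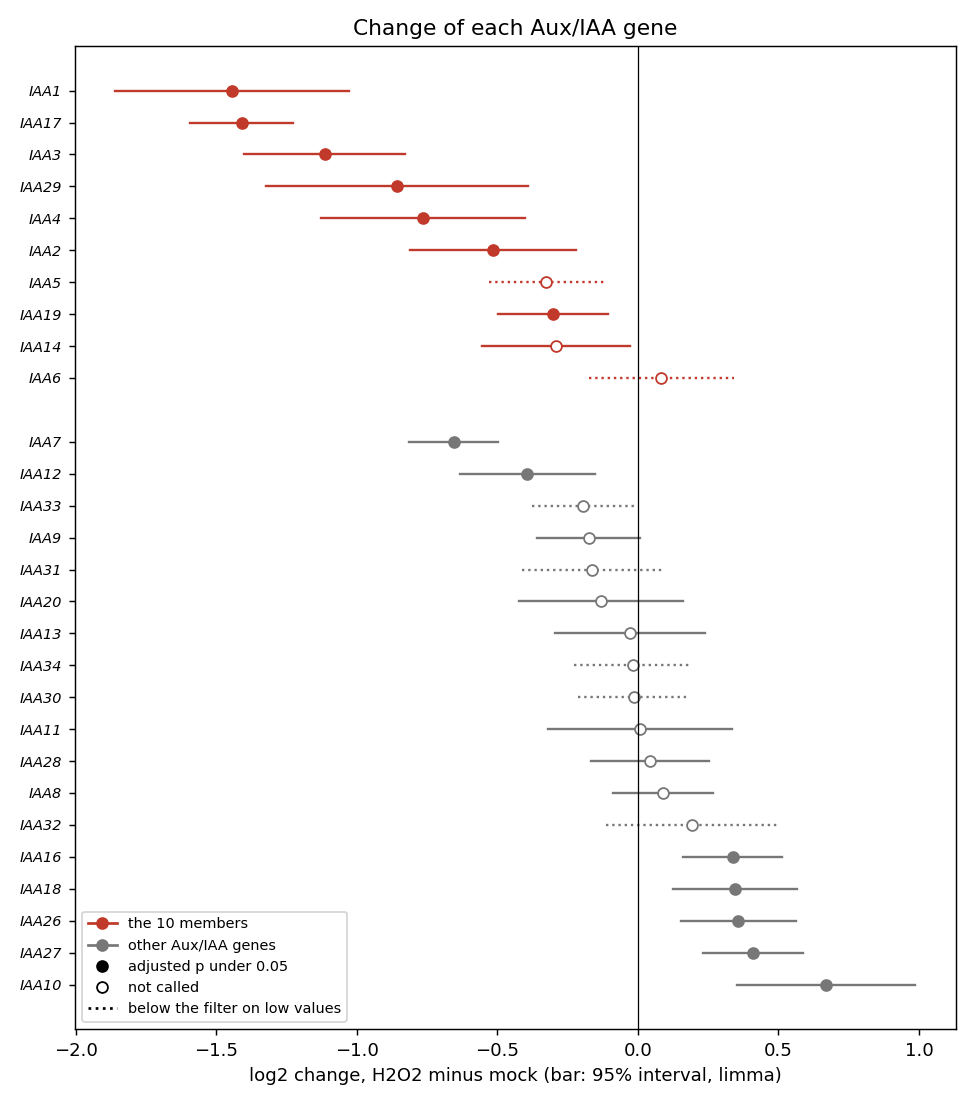
Log2 change (H2O2 minus mock) of every Aux/IAA gene on the array with its 95% limma interval, the 10 members in red above and the 18 others in grey below. Filled points were called at an adjusted p under 0.05, and dotted intervals belong to genes under the filter on low values, from a fit without it. The members run from -1.44 to 0.08 and the other genes from -0.66 to 0.67.

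Of the receptors that bind Aux/IAA proteins, all 6 were tested, 2 fell and 4 were not called. Falls were found for 36.5% of all probe sets tested and rises for 23.9%. AFB1 (GRH1 in RefSeq) had 6.86 ± 0.02 in H2O2 and 7.48 ± 0.08 in mock (log2, SD, n = 3 each) and fell by 0.62. TIR1 fell by 0.30 (SE 0.08), a call lost with reference gene centring, under which 3 receptors were called higher, and without mock replicate 3. Genes of the proteins that work with them were mostly uncalled. Among 8 SCF ligase and TOPLESS genes, ASK2, an adaptor of the ligase, fell by 0.44, TPR4, a TOPLESS relative, rose by 0.43 and the scaffold gene CUL1 rose by 0.34. With the replicate block ASK1 was also called lower (adjusted p = 0.0324), which made 2 fallers.

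Of 14 tested genes in the ARF family, which holds the targets of Aux/IAA repression, 2 rose, 5 fell and 7 were not called. Of all probe sets tested, 36.5% fell and 23.9% rose at the same threshold. ARF5, known as MONOPTEROS, an activator that acts in vascular and embryonic patterning, had 6.39 ± 0.09 in H2O2 and 4.96 ± 0.21 in mock (log2, SD, n = 3 each) and rose 2.70-fold. The other riser was the activator gene ARF7 at 0.30, whose call was lost without H2O2 replicate 1 or mock replicate 3. ARF17 fell by 0.79 and ARF16 by 0.65, both repressor-type factors, and ARF4, ARF10 and ARF6 fell by 0.59, 0.36 and 0.32, the last with a call lost without any 1 of H2O2 replicates 1 to 3 or mock replicates 1 and 2, and with reference gene centring.

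Other genes that auxin induces did not move in 1 direction. SAUR genes, short auxin-induced transcripts tied to cell expansion, fell in 10 of 12 tested cases, rose in 1 and were not called in 1, with a median log2 change of -1.17. Falls were found for 36.5% of all probe sets tested and rises for 23.9%. SAUR23 and SAUR63 passed the filter only through mock and so had to be lower. Without them 8 of 10 fell, with a median of -0.95, and with low values raised to the 30th percentile the median of the 12 was -0.92. SAUR16 had 4.83 ± 0.14 in H2O2 and 7.08 ± 0.71 in mock (log2, SD, n = 3 each) and fell 4.75-fold. SAUR14 and SAUR15 fell 3.90-fold and 3.44-fold. All 3 were highest in mock replicate 1 and lowest in mock replicate 3, and as close relatives they may share probe signal in part. The riser was SAUR36, a gene linked to leaf senescence, at 1.14 on the log2 scale. GH3 genes, whose enzymes conjugate auxin to amino acids, went the other way, with 3 of 4 tested genes higher and 0 lower, also at an unadjusted p under 0.05. GH3.3 had 7.31 ± 0.35 in H2O2 and 6.15 ± 0.20 in mock (log2, SD, n = 3 each), while WES1 (another GH3 gene) and GH3.6 rose by 0.58 and 0.33, the call of GH3.6 being lost without mock replicate 2 (adjusted p = 0.0561). Of 3 tested genes among 6 other early auxin-induced genes, the homeobox genes HAT2 and HB-2 fell by 0.78 and 0.41.

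**Figure D3:**
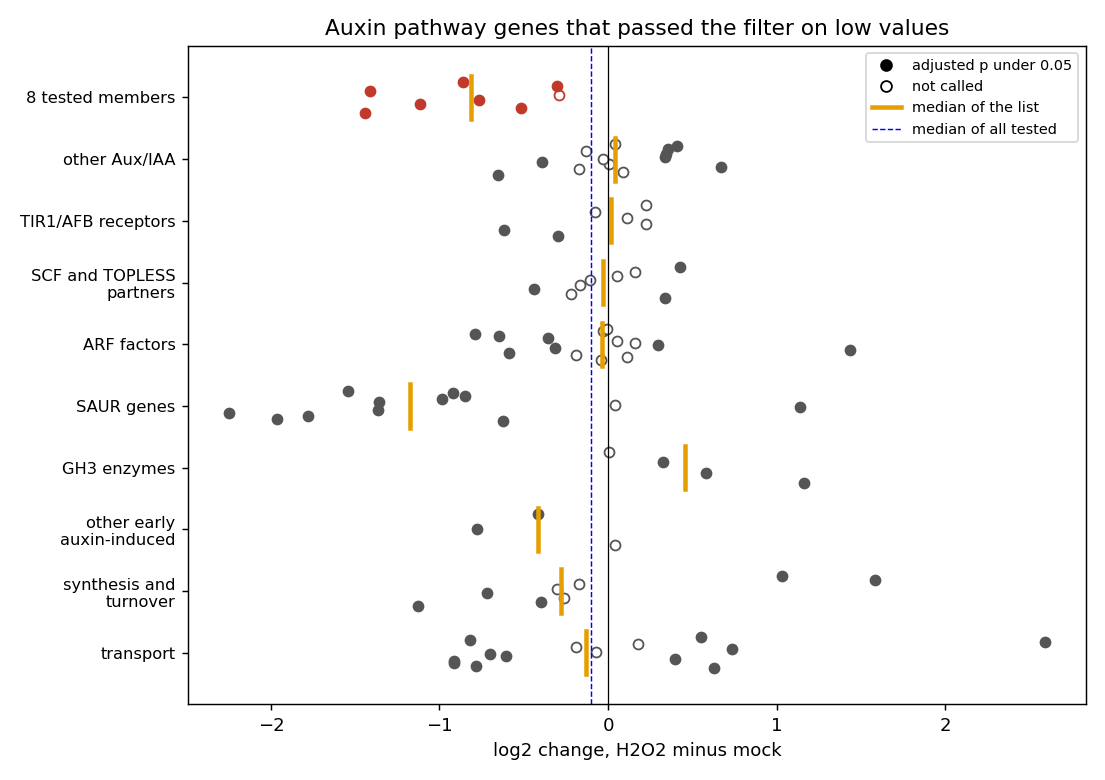
Log2 change (H2O2 minus mock) of auxin pathway genes that passed the filter on low values, by role, the Aux/IAA members in red at the top. Filled points were called at an adjusted p under 0.05, orange bars are list medians and the dashed line is the median of all probe sets tested (-0.10). The members and the SAUR genes have the lowest medians, -0.81 and -1.17. Without IAA29, SAUR23 and SAUR63, which passed the filter only through mock and so had to be lower, these are -0.76 and -0.95.

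Upstream of the repressors, 8 genes of auxin synthesis and turnover were tested, of which 3 fell and 2 rose. TAA1, which converts tryptophan to the precursor of auxin, had 6.11 ± 0.27 in H2O2 and 7.24 ± 0.38 in mock (log2, SD, n = 3 each) and fell 2.18-fold. The other fallers were YUC3 at -0.72 and TAR2 at -0.40, the call of TAR2 being lost without H2O2 replicate 1 (adjusted p = 0.0535). With the replicate block YUC2 and YUC5 were also called, which made 5 fallers. The risers were the 2 loci listed for turnover, which have no symbol in the RefSeq table, AT1G14130 at 1.59 and AT1G14120 at 1.03. Auxin transport genes fell in 6 of 14 cases and rose in 5. Beside both lists, 36.5% of all probe sets tested fell and 23.9% rose. The efflux carrier genes PIN4 and PIN3 fell by 0.92 and 0.91, whereas the transporter gene ABCB4 had 8.61 ± 0.20 in H2O2 and 6.02 ± 0.12 in mock (log2, SD, n = 3 each) and rose by 2.59. PIN2, PIN7, AUX1 and ABCB19 fell by 0.60 to 0.82, and LAX2, PID and PIN6 rose by 0.39 to 0.73. Quantile normalization ended the call of PIN6, as did leaving out H2O2 replicate 1 or mock replicate 1 or 2.

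Most organ markers were also lower in H2O2. Of the 10 root markers 8 fell, 5 of them at least 2-fold, and 2, PYK10 and CASP4, were not called. The falls were uneven. The 5 were PRP3, PRP1, XTH14, EXPA7 and EXPA18, with log2 changes from -2.08 to -1.17. COBL9 changed by -0.78, CASP1 and MRN1 by -0.30 each, PYK10 by -0.05 and CASP4 by 0.16. The root markers thus did not show a fall shared by all root transcripts. Of all probe sets tested 36.5% fell, and 4.14% were called with a fall of at least 2-fold. The calls of CASP1 and MRN1 held in 6 of 15 and 6 of 11 alternative fits. Levels of the root markers, summed on the linear scale, ran from 4214 to 4850 in H2O2 and from 5485 to 5820 in mock. Without PYK10, the most abundant, they ran from 530 to 690 in H2O2 and from 1445 to 1513 in mock. All 3 leaf markers fell too, with sums of 7459 to 8511 in H2O2 and 11049 to 11401 in mock. The part of these shifts in the Aux/IAA result was not tested, and in pooled tissue fewer cells of a type and less RNA per cell cannot be told apart.

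Each centring shifted every log2 change alike, which quantile normalization did not. The 7 reference genes themselves had a median log2 change of -0.14, with 2 called lower and 0 higher. With each array centred on them, the median change of all probe sets moved by 0.11 on the log2 scale. Among called probe sets 51.9% were then higher, against 39.5% with the deposited scaling. Under that centring 6 Aux/IAA members still fell, all but IAA19 of the 7, and the median of the 8 was -0.71, both with IAA29 included. Of all 15001 probe sets 4031 were then called lower, against 5482 with the deposited scaling. Every one of the 8 tested members kept a negative log2 change in each of the 15 alternative fits that could test it. IAA1, IAA2, IAA3, IAA4 and IAA17 passed the threshold in all of these. IAA29 also did so, in 13 fits, but it passed the filter only through mock and so had to be lower.

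**Figure D4:**
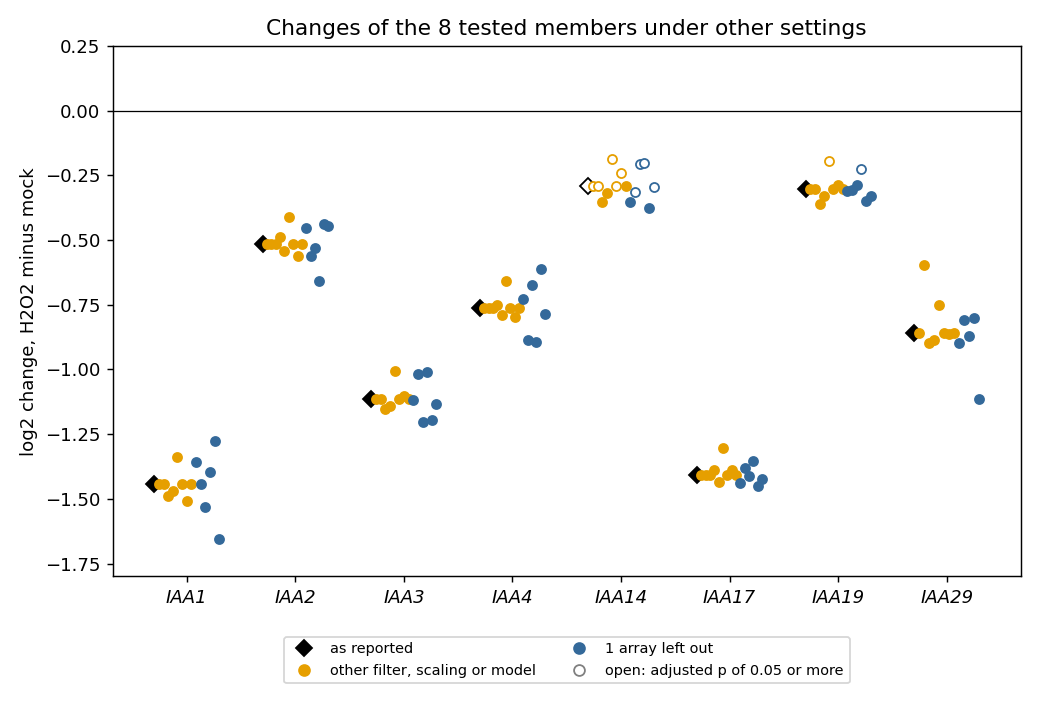
Log2 change (H2O2 minus mock) of the 8 tested Aux/IAA members as reported (black diamonds), under another filter, scaling or model (orange) and with 1 array left out (blue), where open symbols have an adjusted p of 0.05 or more. IAA17 ranges from -1.45 to -1.30, and open symbols appear only for IAA14 and IAA19.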

How the data were processed

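Each array's deposited log2 values were produced by the authors with GCRMA, per the submitters' processing notes. That they are on a log2 scale follows from their range, 1.55 to 13.2. Neither the version of GCRMA nor the chip and its probe definition is stated in the labels. Because arrays were normalized to each other, an overall change in RNA content would not show.

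From these, every probe set with a mean at or above the 30th percentile was fitted in R 4.3.3 with limma 3.58.1, using lmFit and eBayes on 3 H2O2 against 3 mock arrays (4 residual and 4.30 prior degrees of freedom) and adjusting over all 15001. The members, gene lists and tests were chosen with earlier results of these data known. List genes named are the 3 with the largest changes among those called. Others, named where a count was small, were chosen after their values were seen. Of the listed genes, 1 is counted but not reported by name here. A RefSeq gene table (TAIR10.1) gave symbols and gene neighbours and held 21231 of the loci. Of the 8 reference genes listed, 7 were on the array.

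Replicates carry the numbers 1 to 3 in both groups. Arrays with equal numbers deviated together from their group means (correlations of 0.19, 0.21 and 0.21). The numbers were thus taken as pairs from the data, and the number entered as a block in an alternative fit. Unless the block is named, SEs, intervals and p-values leave the pairs out, as do the permutation tests. Further alternatives were no filter or a 50th percentile filter, low values raised to 3.74, quantile normalization, arrays centred on their median or on reference genes, a trended robust prior, array weights, and each array left out. The fit was tested on simulated data. Figures used matplotlib 3.10.9 and permutation tests scipy 1.17.1.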

Additional observations from a re-analysis of the deposited data

How the results depend on the processing

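The number of Aux/IAA members called lower was 7 and stayed between 6 and 8 when 1 array was left out. It was 8 without the filter, and 3 with the 50th percentile filter, which left only 3 members to test. Calls over all probe sets also moved. As reported, 5482 of 15001 were lower and 3584 higher. Without the filter 5728 of 21430 were lower and 3909 higher, and with the 50th percentile filter 4425 of 10715 and 2629. With 1 array left out, 4611 to 5317 of 15001 were lower and 3270 to 3373 higher. IAA14 was called with quantile normalization (-0.35), median centring (-0.32), the replicate block (-0.29), without H2O2 replicate 1 (-0.35) and without mock replicate 2 (-0.38). Adjusted p over its alternatives ran from 0.025 to 0.197 for IAA14 and from 0.00589 to 0.0821 for IAA19. The replicate block changed no other call among members or listed genes than those of IAA14, ASK1, YUC2 and YUC5, and gave 2 fallers among SCF and TOPLESS genes and 5 in auxin synthesis.

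The stricter filter, by testing fewer genes, gave 3 lower and 1 higher ARF, 3 lower SAUR and 2 higher transport genes. It also gave 1 lower other early auxin-induced gene. Among genes of auxin synthesis and turnover it gave 1 lower and 1 higher, the higher being AT1G14130, listed for turnover. With it 2 SCF and TOPLESS genes were lower, as also with median centring, the trended prior and array weights. Without the filter 1 other early auxin-induced gene was higher. Quantile normalization gave 5 lower auxin synthesis genes. Reference gene centring gave 1 lower gene among the other Aux/IAA genes, and 1 lower and 3 higher receptors. With 1 array left out, counts ran from 1 to 2 for receptors lower, 0 to 1 for receptors higher, 1 to 2 for ARF higher, 1 to 2 for SCF and TOPLESS lower, 3 to 5 for auxin synthesis lower and 3 to 5 for transport higher. The causes were not tested. Leaving out genes whose mean in 1 group lay under the filter level, an alternative chosen after seeing the data, gave 6 of 7 members and 8 of 10 SAUR genes lower. Values under 3.79, as of IAA5, IAA6 and IAA29 in H2O2, are where the signal limits the comparison.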
